A study of Mus musculus with 16 samples.

Results

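The genes that set the pace of G1 were followed through the bone marrow of mice with and without Tet2: the D-type cyclins Ccnd1, Ccnd2 and Ccnd3, their kinase partners Cdk4 and Cdk6, and the inhibitors Cdkn1a, Cdkn1b, Cdkn1c, Cdkn2c and Cdkn2d. They were taken by symbol, and all 10 were found among the 27998 genes of the deposited count matrices. Lineage-depleted bone marrow cells came from 16 C57BL/6 mice, 4 in each of 4 groups, aged 6 to 12 weeks per the labels. Tet2-KO mice carried Vav-Cre and lacked Tet2 throughout the blood system (Vav-Cre-Tet2-/-), and WT mice carried the floxed alleles without Cre (Tet2fl/fl), so that the presence of Cre and the loss of Tet2 cannot be told apart. Within each genotype, mice received IL1β intraperitoneally, 500 ng per mouse per day for 5 weeks, or vehicle over the same time. The 4 groups are called WT vehicle, WT IL1β, Tet2-KO vehicle and Tet2-KO IL1β. Each of 8 libraries pooled cells of 2 mice from the same group, which carried different hashtag antibodies; the 10x 3′ assay was used, which counts RNA molecules as unique molecular identifiers (UMIs).

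Commitment to divide is made in G1. D-type cyclins are produced in response to growth signals, bind Cdk4 and Cdk6 and start the phosphorylation of the retinoblastoma protein, which releases E2F factors that drive genes of S phase. Proteins of the INK4 family, among them p18 (Cdkn2c) and p19 (Cdkn2d), bind Cdk4 and Cdk6 and keep cyclin D away. Proteins of the CIP/KIP family, p21 (Cdkn1a), p27 (Cdkn1b) and p57 (Cdkn1c), bind cyclin and kinase together and restrain Cdk2 above all. Hematopoietic stem cells (HSCs) are mostly quiescent, and Cdk6 is known for setting the time they need to leave quiescence, while Cdkn1a, Cdkn1b, Cdkn1c and Cdkn2c are known for holding stem cells in it. Cdkn1a is also a target of p53.

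The stretches upstream of 4 of the genes show how unlike their start sites are. In GRCm38 (the mm10 build), the table of RefSeq promoters used here had 10 entries for 7 of the 10 genes, and Ccnd1, Ccnd2 and Cdkn1c were not among them. The 250 bases before the start are shown for Cdkn1a (the more upstream of its 2 starts), Cdk6 and Cdkn1b, and for Cdk4. In HSC-like cells with IL1β, as described below, Cdkn1a and Cdk6 rose in both genotypes, and Cdkn1b rose and Cdk4 fell in Tet2-KO mice. In WT mice Cdkn1b and Cdk4 changed in the same directions but did not pass the test, and no difference between the genotypes in these changes was called. All 4 genes lie on the plus strand. Capitals mark matches on either strand to the GC box GGGCGG, the TATA box TATAAA, the CCAAT box CCAAT, the Myc-type E box CACGTG, the E2F sites TTTCCCGC and TTTGGCGC, the 10-base repeat of the p53 consensus and the NF-kB consensus, and no 2 matches overlapped in these 4 stretches.
Cdkn1a, chr17:29090729-29090978, plus strand: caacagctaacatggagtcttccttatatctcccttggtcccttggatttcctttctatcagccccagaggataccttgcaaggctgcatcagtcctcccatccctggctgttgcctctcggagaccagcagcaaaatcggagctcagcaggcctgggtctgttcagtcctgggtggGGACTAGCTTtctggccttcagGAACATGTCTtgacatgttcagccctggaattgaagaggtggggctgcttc
Cdk6, chr5:3343643-3343892, plus strand: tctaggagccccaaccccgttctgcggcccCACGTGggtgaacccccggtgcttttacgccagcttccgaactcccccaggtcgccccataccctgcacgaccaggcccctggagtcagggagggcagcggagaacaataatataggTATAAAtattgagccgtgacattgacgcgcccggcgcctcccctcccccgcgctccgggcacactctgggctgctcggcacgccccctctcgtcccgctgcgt
Cdkn1b, chr6:134920151-134920400, plus strand: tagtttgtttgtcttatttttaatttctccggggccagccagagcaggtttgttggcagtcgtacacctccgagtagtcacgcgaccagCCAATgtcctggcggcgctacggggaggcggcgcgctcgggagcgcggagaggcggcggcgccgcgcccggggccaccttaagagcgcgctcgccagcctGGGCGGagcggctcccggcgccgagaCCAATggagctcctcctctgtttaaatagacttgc
Cdk4, chr10:127063285-127063534, plus strand: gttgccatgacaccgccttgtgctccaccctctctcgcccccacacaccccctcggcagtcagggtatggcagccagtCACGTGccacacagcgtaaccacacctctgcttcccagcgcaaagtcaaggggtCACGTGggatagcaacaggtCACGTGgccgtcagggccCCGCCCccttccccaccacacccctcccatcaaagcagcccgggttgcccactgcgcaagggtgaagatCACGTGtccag

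Cdk4 had 4 E boxes, 172, 118, 98 and 11 bases before its start, and 1 GC box, while Cdk6 had 1 E box and 1 TATA box. Among the 32851 upstream stretches of the same table and length, 6.02% held the E box, 32.7% the GC box and 12.4% the TATA box. The Cdkn1a stretch held 2 matches to the p53 repeat, 73 and 51 bases before the start, a motif found in 7.13% of all stretches, and the GC boxes of Cdkn1a stood at its second start, 104 and 46 bases upstream. Cdkn1b held 2 CCAAT boxes, found in 33.8% of all stretches, and 1 GC box. No entry of these genes held the E2F sites (1.3% of all stretches) or the NF-kB consensus (7.25%) in this window. A match is a run of letters and says nothing of whether a factor was bound. By the annotation (GENCODE vM21, GRCm38), all 10 genes are protein coding, and they range from Cdkn1c on chromosome 7 (143458339 to 143461050, minus strand, 2.71 kb) to Cdk6 on chromosome 5 (3341485 to 3531008, plus strand, 189.5 kb). Cdkn1a covers 29090976 to 29100727 on chromosome 17 and Cdk4 127063534 to 127067920 on chromosome 10, both on the plus strand.

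Of 121405 barcodes, 94917 passed the filters of at least 750 genes and at most 10% mitochondrial UMIs, and 57896 were assigned to 1 mouse, 698 to 6432 cells and 4388604 to 44152768 UMIs per mouse. After filtering, 1061 barcode sequences occurred in 2 or more libraries. Cells were clustered without any of the 10 genes or the cell cycle genes, and the clusters were named by markers. The HSC-like class held 4674 cells (846 WT vehicle, 933 WT IL1β, 1448 Tet2-KO vehicle and 1447 Tet2-KO IL1β) in 1 cluster led by Hlf, Mecom, Gcnt2, Vldlr and Meis1, and all 12 HSC markers had UMIs in each group. The 10 leading genes of this cluster held 4 HSC markers and 1 progenitor marker, and its 50 leading genes 4 and 5. Per mouse the HSC-like class comprised 83472 to 2583161 UMIs, and the mean UMIs per cell of a mouse ranged from 2524 to 4449.5 with vehicle and from 2964 to 6047 with IL1β. The 3′ counts of Tet2 do not read the deleted part of the gene, so they do not check the genotype. Since each library held 1 group, a difference between pools and a difference between groups share the same cells.

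In WT vehicle mice, the 10 genes had distinct patterns over 15 classes of cells, given here as CPM, the UMIs of a gene scaled to the same total for each mouse and class, mean ± SD over mice. UMIs are counted at the 3′ end, 1 per molecule, so that the values were not divided by gene length. The cyclins split by lineage. Ccnd1 was highest in plasmacytoid dendritic cell-like cells (pDC-like), at 205 ± 51 CPM, then in dendritic cell-like cells (DC-like, 124 ± 34.4), whose mice all lay above the next class, and lowest in Plasma-like cells, the plasma cell-like class (5.56 ± 6.35), and granulocyte/monocyte progenitor-like cells (Gran/Mono Prog-like, 5.55 ± 3.1). Ccnd2 led in T/NK-like cells (465 ± 153), common lymphoid progenitor-like cells (CLP-like, 403 ± 26.8, a cluster with as many Prog markers as CLP markers among its leading genes) and HSC-like cells (325 ± 31.3). Its CLP-like values, 368 to 433, did not overlap the HSC-like ones, 282 to 355, and it was lowest in neutrophil-like cells (Neut-like, 52.2 ± 6.88). Ccnd3 was highest in pDC-like (281 ± 28.9), DC-like (259 ± 6.59), erythroblast-like (EryB-like, 239 ± 25.4) and Neut-like cells (235 ± 19.1), with neighbouring classes overlapping, and in HSC-like cells it stood at 116 ± 45.5.

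The kinases divided the marrow differently. Cdk6 was highest in megakaryocyte/erythroid progenitor-like (MEP-like, 767 ± 108), HSC-like (749 ± 104), CLP-like (702 ± 61.5) and progenitor-like cells (Prog-like, 677 ± 58.4), each overlapping the next, and lowest in mature classes, with 208 ± 19.4 in Neut-like, 92.8 ± 7.96 in DC-like and 70.3 ± 25.7 in Plasma-like cells. Cdk4 varied much less, from 304 ± 27.9 CPM in CFU-E-like cells, the erythroid progenitors, to 133 ± 9.69 in DC-like cells, and no class had all its mice above the next one. In HSC-like cells Cdk4 stood at 258 ± 33.8. The MEP-like cluster had 1 MEP marker among its 10 leading genes, and 4 MEP and 4 CFU-E markers among its 50 leading genes.

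Cdkn1a and Cdkn2d were lowest in CFU-E-like cells and Cdkn1b and Cdkn2c in Gran/Mono Prog-like cells. Cdkn1b was highest in DC-like cells (153 ± 12.6), with all mice above the next class, stood at 89.1 ± 14.6 in HSC-like and 89 ± 15.3 in CLP-like cells, and was lowest in CFU-E-like (24.1 ± 5.44) and Gran/Mono Prog-like cells (20.1 ± 2). Cdkn2d had 189.7 ± 10.2 CPM in DC-like cells, 139.9 ± 66.4 in megakaryocyte progenitor-like cells (MegP-like), 32.5 ± 6.23 in HSC-like and 5.03 ± 3.45 in CFU-E-like cells. Cdkn2c was highest in DC-like cells (81.4 ± 14.2, all mice above the next class) and stood at 19 ± 3.98 in HSC-like cells. Cdkn1a was highest in CLP-like cells (70.2 ± 28.7), followed by Prog-like (40.2 ± 6.64), and stood at 20.3 ± 8 in HSC-like cells, 7th of the 15 classes, and 3.42 ± 2.27 in CFU-E-like cells. Cdkn1c was close to absent everywhere, with 3.04 ± 2.58 CPM in HSC-like cells, 3.01 ± 5.21 in T/NK-like cells and under 1 CPM in the other classes. With 3 or 4 mice per class, neighbours in these orders differed beyond the range of the mice only where said.

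**Figure D1:**
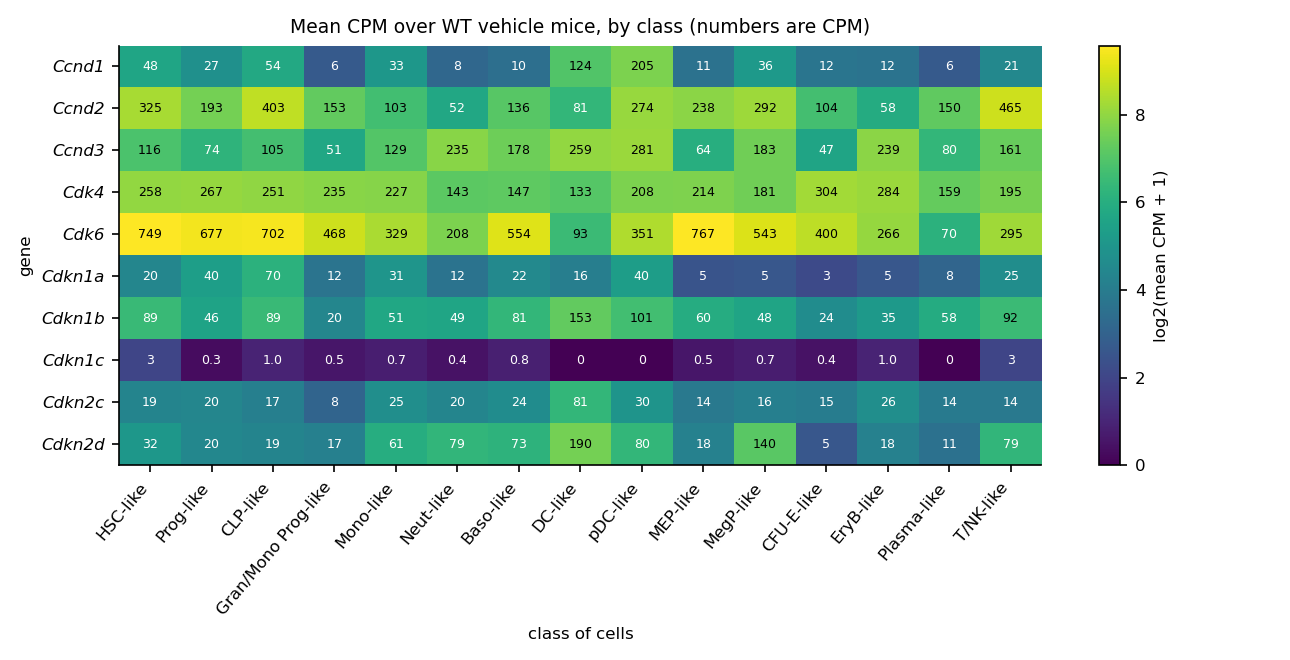
Mean CPM of the 10 genes (rows) over WT vehicle mice in 15 classes of cells (columns). Numbers are CPM and colour is log2(mean CPM + 1). Cdk6 is highest, at 677 to 767 CPM, in MEP-like, HSC-like, CLP-like and Prog-like cells, and Cdkn1c reaches 3.04 CPM at most.

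To find which of the genes IL1β and the loss of Tet2 moved in HSC-like cells, UMIs were summed per mouse and tested with edgeR's quasi-likelihood test over 9432 genes, with Benjamini-Hochberg adjustment. Cdkn1c did not pass the filter on low counts, so 9 of the 10 genes were tested. IL1β against vehicle in WT mice gave 4 of 9, Ccnd1 and Ccnd2 lower and Cdk6 and Cdkn1a higher, where 10.9% of all genes were called (1026, 472 up and 554 down). In Tet2-KO mice it gave 4 of 9 as well, Cdk4 lower and Cdk6, Cdkn1a and Cdkn1b higher, where 19.6% of all genes were called. Tet2-KO against WT gave 1 of 9 with vehicle, Ccnd1 lower, where 0.0212% of all genes were called (2 genes), and 0 of 9 with IL1β, where 0.0212% were called too. In that last comparison 1 of the 9 was at an unadjusted p under 0.05 with edgeR, and DESeq2 called none of the 9. The interaction, which asks whether IL1β acted differently in the 2 genotypes, called 0 of 9 and 0% of all genes, with 1 of the 9 and 374 of all genes at an unadjusted p under 0.05, and DESeq2 also called 0. The median log2 fold change of the 9 genes was -0.12 with IL1β in WT and -0.10 in Tet2-KO mice, against medians of 0.0063 and -0.00033 over all genes.

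In terms of mice, 5 of the 9 genes had no overlap between vehicle and IL1β mice in WT (Ccnd1, Cdk4, Cdk6, Cdkn1a and Cdkn1b), where 14.1% of all genes had none. In Tet2-KO mice the count was 3 (Cdk4, Cdk6 and Cdkn1a), where 21.3% had none. Between the genotypes 1 gene did not overlap with vehicle (Ccnd1, background 2.65%) and 1 with IL1β (Cdk4, background 4.03%). The values given next are scaled CPM, that is CPM after TMM scaling between mice, in the order of mice 1 to 4.

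Cyclin D1 had the sharpest pattern of the 3 cyclins. In WT vehicle mice Ccnd1 stood at 35.8, 70.4, 39.9 and 51.1 scaled CPM, and every mouse of the other 3 groups was below all of them. It stood at 20.1, 6.66, 16.4 and 13.6 in WT IL1β mice, at 8.54, 13.8, 17.5 and 15.4 in Tet2-KO vehicle mice and at 4.15, 15.9, 8.28 and 7.43 in Tet2-KO IL1β mice. With IL1β in WT mice Ccnd1 fell from 49.3 ± 15.5 to 14.2 ± 5.67 (SD, n = 4; log2 fold change -1.46 ± 0.29 SE, edgeR adjusted p = 0.00184). With vehicle, Tet2-KO mice had less of it than WT mice, at 13.8 ± 3.84 (log2 fold change -1.68 ± 0.29, edgeR adjusted p = 0.0199). Both comparisons share the WT vehicle mice. In Tet2-KO mice the change with IL1β was -0.38 ± 0.32 (edgeR adjusted p = 0.453), and the difference between the genotypes in the change was 1.08 ± 0.44 (edgeR unadjusted p = 0.0206, adjusted p = 1). These levels rest on few molecules, 126, 58, 55 and 66 UMIs of Ccnd1 over the HSC-like cells of the 4 groups in the order WT vehicle, WT IL1β, Tet2-KO vehicle and Tet2-KO IL1β. Among cells thinned to 2000 UMIs, 9.8%, 2.96%, 2.6% and 1.92% had a Ccnd1 UMI in these groups, as means over mice, and of all cells of a group together, without thinning, 12.5%, 5.68%, 3.73% and 4.28%. In Gran/Mono Prog-like cells, where Ccnd1 averaged 1.24 to 5.55 CPM over the groups, the thinned shares were 0.328% to 0.877%. The thinning left out 103, 189, 368 and 110 shallower HSC-like cells, and the median depth was 2472 to 3410 UMIs in HSC-like and 6910 to 9113 in Gran/Mono Prog-like cells. The genotype call ended when any of 5 single mice was left out, with values of -1.63 (edgeR adjusted p = 0.0508) without WT vehicle mouse 2, -1.77 (0.0933) without mouse 3, -1.55 (0.524) without mouse 4, -1.46 (0.154) without Tet2-KO vehicle mouse 1 and -1.74 (0.0763) without mouse 4.

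Cyclin D2, the main D-type cyclin of these cells, was lower with IL1β in WT mice. Ccnd2 stood at 302, 317, 366 and 348 scaled CPM in WT vehicle mice and at 164, 164, 225 and 334 in WT IL1β mice, where mouse 4 lay within the vehicle range. The Tet2-KO vehicle mice had 275, 292, 334 and 285 and the Tet2-KO IL1β mice 152, 297, 209 and 215. Ccnd2 fell in WT mice from 333 ± 29 to 222 ± 80.2 (log2 fold change -0.66 ± 0.18, edgeR adjusted p = 0.0193), while in Tet2-KO mice the change of -0.41 ± 0.17 did not pass (edgeR adjusted p = 0.0884). With HSC-like cells taken by marker gates (71 to 151 cells per group), Ccnd2 over all cells of a group stood at 402 CPM with vehicle and 229 with IL1β in WT mice. In Tet2-KO mice these gated levels were 311 and 329 CPM. The WT call ended without WT vehicle mouse 3 or 4 or WT IL1β mouse 1, 2 or 3 (-0.60, -0.63, -0.51, -0.55 and -0.68, edgeR adjusted p = 0.0882, 0.069, 0.0807, 0.0717 and 0.0503), and in Tet2-KO mice a call arose without Tet2-KO IL1β mouse 2 (-0.59, edgeR adjusted p = 0.0175). Cyclin D3 did not pass in any comparison. Ccnd3 ranged from 81.9 to 176 in WT vehicle, 91.2 to 109 in WT IL1β, 72.2 to 150.5 in Tet2-KO vehicle and 95.5 to 118 in Tet2-KO IL1β mice, with log2 changes of -0.12 ± 0.18 and -0.12 ± 0.16 with IL1β in WT and Tet2-KO mice and 0.17 for Tet2-KO against WT in both treatments (edgeR adjusted p from 0.645 to 1).

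The 2 kinases moved in opposite directions. Cdk6 stood at 868, 634, 697 and 885 scaled CPM in WT vehicle mice and at 1019, 968, 1159 and 971 in WT IL1β mice. It had 965, 863, 853 and 853 in Tet2-KO vehicle mice and 1125, 1227, 1168 and 1131 in Tet2-KO IL1β mice. In both genotypes each IL1β mouse was above every vehicle mouse. The log2 fold change was 0.40 ± 0.11 in WT (1029.5 ± 89.6 against 771 ± 125, edgeR adjusted p = 0.0159) and 0.40 ± 0.11 in Tet2-KO mice (1163 ± 46.8 against 884 ± 54.5, edgeR adjusted p = 0.00912), and the difference between the 2 changes was -0.0051 ± 0.15 (edgeR adjusted p = 1). With HSC-like cells taken by marker gates, which kept 71 to 151 cells per group in 3 WT vehicle, 2 WT IL1β, 4 Tet2-KO vehicle and 3 Tet2-KO IL1β mice, Cdk6 changed by 1.00 ± 0.25 in WT (edgeR adjusted p = 0.033), the value in Tet2-KO mice was 0.66 ± 0.21 (0.0737) and the difference -0.34 ± 0.33 (1). The WT call ended without WT vehicle mouse 3 or WT IL1β mouse 3 (0.35 each, edgeR adjusted p = 0.0863 and 0.066).

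Cdk4, in turn, was lower with IL1β. It had 235, 293, 252 and 275 scaled CPM in WT vehicle, 229.8, 215, 215 and 198 in WT IL1β, 208, 224, 224 and 239.5 in Tet2-KO vehicle and 176, 180.2, 177 and 185 in Tet2-KO IL1β mice. In both genotypes all IL1β mice lay below all vehicle mice, and with IL1β all Tet2-KO mice lay below all WT mice. It fell in Tet2-KO mice from 224 ± 12.7 to 179.7 ± 4.03 (log2 fold change -0.31 ± 0.10, edgeR adjusted p = 0.0285), and the change of -0.26 ± 0.11 in WT mice did not pass (264 ± 25.4 to 215 ± 13.2, edgeR adjusted p = 0.116). Between the genotypes the log2 difference was -0.22 ± 0.11 with vehicle and -0.27 ± 0.10 with IL1β (edgeR adjusted p = 0.982 and 0.687). The Tet2-KO call ended without any 1 of Tet2-KO vehicle mice 2, 3 and 4 or Tet2-KO IL1β mice 1 to 4, with values from -0.27 to -0.31 and edgeR adjusted p from 0.0506 to 0.114.

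Of all 9 genes tested, Cdkn1a, which encodes p21, had the largest change with IL1β in each genotype. It stood at 33.3, 11.7, 18.4 and 21.0 scaled CPM in WT vehicle mice and at 100.3, 80, 62.1 and 34.1 in WT IL1β mice. In Tet2-KO mice it had 43.6, 41.3, 19 and 20 with vehicle and 127, 65.3, 97.1 and 80.4 with IL1β. Mice 1 and 2 shared 1 pool and mice 3 and 4 the other. The Tet2-KO vehicle and WT IL1β values went with the pools, higher in mice 1 and 2, and those of the other groups did not. With pools as replicates Cdkn1a was still called with IL1β in both genotypes. All IL1β mice were above all vehicle mice of their genotype, though by less than 1 scaled CPM between WT vehicle mouse 1 and WT IL1β mouse 4. The log2 fold change was 1.81 ± 0.32 in WT (69.1 ± 28.1 against 21.1 ± 9.01, edgeR adjusted p = 0.000555) and 1.60 ± 0.26 in Tet2-KO mice (92.4 ± 26.3 against 30.9 ± 13.3, edgeR adjusted p = 0.00015). The difference between these changes was -0.21 ± 0.42 (edgeR adjusted p = 1). Over the HSC-like cells of the 4 groups, 60, 279, 111 and 481 UMIs were counted, in the same order as above, and WT vehicle mouse 2 had 1. Among cells thinned to 2000 UMIs, 3%, 13.2%, 4.87% and 14.4% had a Cdkn1a UMI as means over mice (6.15%, 22.1%, 6.7% and 21.6% of all cells of a group together, without thinning), against 0.369% to 0.553% of CFU-E-like cells, where its level was lowest and the median depth was 9555 to 13488 UMIs. Both calls remained without any single mouse, with log2 fold changes of 1.52 to 1.98 in WT and 1.38 to 1.97 in Tet2-KO mice.

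Cdkn1b, the gene of p27, rose with IL1β in Tet2-KO mice. It had 102, 70.4, 109 and 85.7 scaled CPM in WT vehicle, 126, 116, 148 and 129 in WT IL1β, 107, 82.6, 100.1 and 90.7 in Tet2-KO vehicle and 106, 153, 105 and 150 in Tet2-KO IL1β mice. The WT groups did not overlap, while 2 of the Tet2-KO IL1β mice lay within the vehicle range. The fitted log2 fold change was 0.44 in each genotype, ± 0.14 in Tet2-KO (edgeR adjusted p = 0.0263) and ± 0.16 in WT mice, where it did not pass (edgeR adjusted p = 0.0736). The Tet2-KO call ended without Tet2-KO vehicle mouse 3 or 4 (0.46 and 0.41, edgeR adjusted p = 0.0558 and 0.0917) or Tet2-KO IL1β mouse 2 or 4 (0.35 and 0.38, edgeR adjusted p = 0.108 and 0.0847). Cdkn1c, the gene of p57, had 13, 14, 25 and 18 UMIs over all HSC-like cells of WT vehicle, WT IL1β, Tet2-KO vehicle and Tet2-KO IL1β mice. These are 4.46 (95% exact Poisson interval 2.37 to 7.62), 4.13 (2.26 to 6.94), 6.05 (3.92 to 8.93) and 3.07 (1.82 to 4.85) CPM, intervals that cover counting error only. Of the WT IL1β UMIs, 12 came from mouse 1, 2 from mouse 3 and 0 from mice 2 and 4. Cdkn1c entered fits without the low-count filter, with mice assigned by the hashtag ratio and with pools as replicates, and was not called there. Its log2 changes with IL1β were -0.21, -2.10 and -0.74 in WT and -1.04, -1.13 and -0.91 in Tet2-KO mice (edgeR adjusted p from 0.0664 to 0.964).

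The INK4 genes did not pass in HSC-like cells in any comparison. Cdkn2c ranged from 14.6 to 23.5 scaled CPM in WT vehicle, 8.89 to 27.3 in WT IL1β, 5.98 to 17.2 in Tet2-KO vehicle and 12.5 to 16.2 in Tet2-KO IL1β mice. Its log2 change with IL1β was -0.26 ± 0.32 in WT and 0.24 ± 0.29 in Tet2-KO mice (edgeR adjusted p = 0.69 and 0.61), and Tet2-KO against WT gave -0.45 ± 0.32 with vehicle and 0.048 ± 0.29 with IL1β. Cdkn2d ranged from 23.5 to 41, 31.9 to 45, 30.7 to 61.9 and 29.4 to 47.7 in the same order, with log2 changes of 0.1 ± 0.23 and -0.10 ± 0.20 with IL1β in WT and Tet2-KO mice (edgeR adjusted p = 0.848 for the WT value, and neither passed) and differences of 0.13 ± 0.22 and -0.068 ± 0.20 between the genotypes with vehicle and with IL1β. The groups overlapped for both genes.

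**Figure D2:**
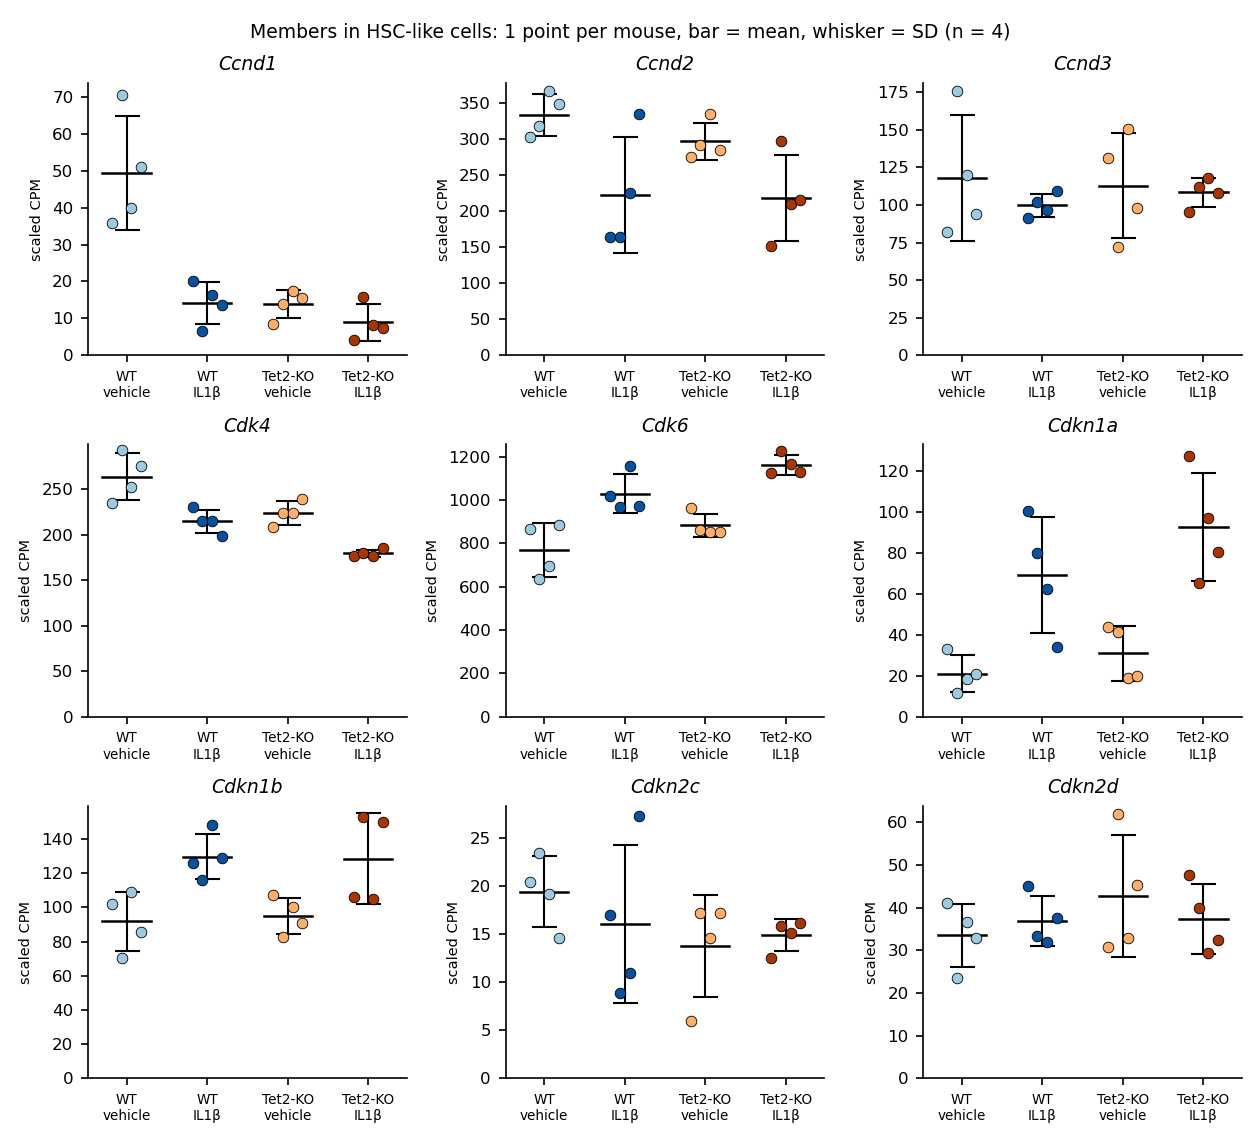
Scaled CPM (vertical axes, from 0) of the 9 genes tested in HSC-like cells, 1 panel per gene and 1 point per mouse, with the mean (bar) and SD (whisker) of each group of 4 mice. The WT vehicle mice stand alone for Ccnd1, at 35.8 or more, and the IL1β mice of both genotypes are above their vehicle mice for Cdk6 and Cdkn1a.

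The summed levels of marker lists in HSC-like cells are given beside these results, with no test of their own. The summed level of the 12 HSC markers in HSC-like cells was 1312 ± 127 CPM in WT vehicle and 927 ± 230.3 in WT IL1β mice, and 1266 ± 82.2 and 1085 ± 109.6 in Tet2-KO mice. The 10 progenitor markers had 2298 ± 267 CPM in WT vehicle and 3056 ± 478 in WT IL1β mice, with ranges of 2013 to 2584 and 2444 to 3583, and 2517 ± 160.2 and 3421 ± 416 in Tet2-KO mice. The 9 granulocyte/monocyte progenitor markers had 840.4 ± 118 and 1577 ± 257 CPM in WT and 1084 ± 221 and 1721 ± 365 in Tet2-KO mice, and none was at 0 in any group. The 10 monocyte markers had 154 ± 74.3, 286 ± 67.4, 239 ± 107 and 301 ± 40.5 CPM in WT vehicle, WT IL1β, Tet2-KO vehicle and Tet2-KO IL1β mice. The WT ranges of the progenitor markers overlapped, and the monocyte markers of Tet2-KO mice differed by less than their spread. The part of these levels in the results was not tested. Set beside them, Cdkn1a in IL1β mice was higher in HSC-like cells, at 69.1 and 92.4 scaled CPM in WT and Tet2-KO mice, than in Prog-like (39.8 and 43.1) or Gran/Mono Prog-like cells (13.3 and 13.1), each scaled within its class. CLP-like cells, which could as well have been named Prog-like, had 63.6 to 161 unscaled CPM of Cdkn1a in WT IL1β and 120.1 to 161 in Tet2-KO IL1β mice. HSC-like cells had 35.3 to 102 and 66.6 to 128 CPM in these groups. In WT vehicle mice, Prog-like cells had less Ccnd2 (193 against 325 CPM) and Ccnd1 (27.2 against 48.5) than HSC-like cells, and Cdk6 stood at 677 against 749. CLP-like cells had 403 CPM of Ccnd2, 53.7 of Ccnd1 and 702 of Cdk6.

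The share of HSC-like UMIs on the S phase and G2M gene lists was 1.06% ± 0.0401 in WT vehicle, 1.38% ± 0.0623 in WT IL1β, 0.903% ± 0.215 in Tet2-KO vehicle and 1.16% ± 0.188 in Tet2-KO IL1β mice. For IL1β in WT mice the two-sided exact permutation test gave p = 0.0286, the smallest that 4 against 4 mice allow, or 0.114 adjusted over the 4 comparisons, and the other 3 adjusted exact p-values were 0.171. In WT mice the share ran from 1.03% to 1.11% with vehicle and from 1.31% to 1.45% with IL1β. A fit with it as covariate therefore cannot cleanly separate it from IL1β in WT mice. With this share as a covariate the Cdkn1a change was 1.19 in WT (edgeR adjusted p = 0.0778) and 1.07 in Tet2-KO mice (0.0261), that of Ccnd1 in WT -0.90 (0.385), that of Ccnd2 in WT -0.26 (0.583) and that of Cdk6 0.45 in WT (0.0849) and 0.43 in Tet2-KO mice (0.0405). In the cells at or below the median of S and G2M UMIs, an alternative chosen after seeing the data, Cdkn1a rose by 2.41 in WT (edgeR adjusted p = 0.00214) and 1.68 in Tet2-KO mice (0.000424), and the Cdk6 changes were 0.37 and 0.35 (0.215 and 0.0649). In the same cells the WT changes of Ccnd1 and Ccnd2 were -0.63 and -0.37 (edgeR adjusted p = 0.523 and 0.377), and the Tet2-KO changes of Cdk4 and Cdkn1b were -0.46 and 0.59 (0.0525 and 0.0501).

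Within each family, the mean shares of Cdk6 and Cdkn1a in HSC-like cells were higher with IL1β in both genotypes. Of Cdk4 and Cdk6 UMIs together, Cdk6 made up 74.2% ± 4.44 (range 68.4 to 78.7) in WT vehicle, 82.7% ± 1.27 (81.6 to 84.3) in WT IL1β, 79.7% ± 1.77 (78.1 to 82.2) in Tet2-KO vehicle and 86.6% ± 0.542 (85.9 to 87.2) in Tet2-KO IL1β mice, with no overlap between the treatments in either genotype. Among the 5 inhibitors, Cdkn1a made up 12.2% ± 3.51 (9.09 to 16.7), 26.7% ± 9.03 (14.9 to 34), 16% ± 6.02 (11 to 22.9) and 33.4% ± 8.94 (23.5 to 42.7), with overlap between the treatments in WT and none in Tet2-KO mice, while Cdkn1b had the highest mean share in each group, at 54.4% ± 2.49, 51.5% ± 7.26, 50.6% ± 8.63 and 46.6% ± 9.26. In Tet2-KO IL1β mouse 1 there was more Cdkn1a (61 UMIs) than Cdkn1b (51). These 2 sets of shares are descriptions, with no test of their own. Of the D-type cyclins, Ccnd1 made up 9.75% ± 2.16 in WT vehicle mice and 4.39% ± 2.2, 3.27% ± 0.818 and 2.53% ± 0.886 in the other groups, and Ccnd2 64.4% to 70.4% on average in all 4. For the Ccnd1 share, exact permutation tests of IL1β in WT and of Tet2-KO against WT with vehicle gave p = 0.0286, the smallest possible, and 0.171 adjusted over 12 tests, which was the lowest adjusted value of the 12.

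**Figure D3:**
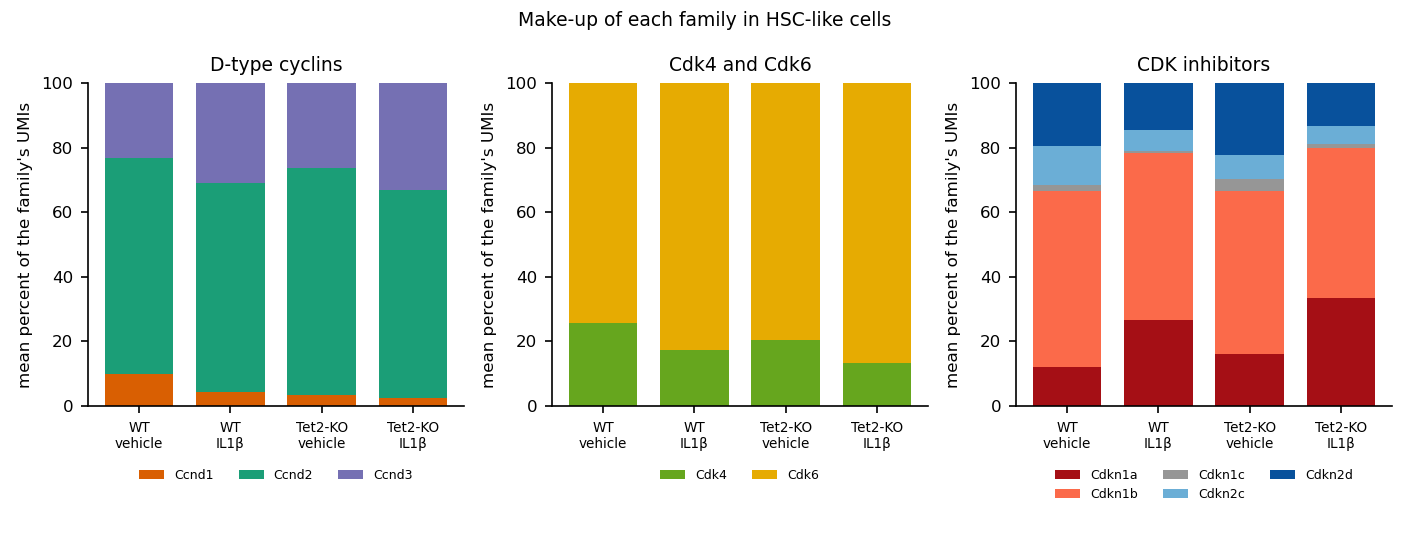
Mean percent of the UMIs of each family (vertical axes, 0 to 100) that belong to each gene in HSC-like cells of the 4 groups, as stacked bars without error bars. Cdk6 goes from 74.2% in WT vehicle to 86.6% in Tet2-KO IL1β mice and Cdkn1a from 12.2% to 33.4% of the inhibitors.

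HSC-like cells with many and with few UMIs of the S and G2M lists were then compared within mice. Each of 3904 cells was thinned to 2000 UMIs, and 1010 cells with at least 30 such UMIs were set against 1087 with at most 8, in 12 mice with at least 10 cells in both bins. These bins are ranges, not cell types: 190 cells lay within 1 UMI above the lower limit and 59 within 1 UMI below the upper. Of the 7 genes that passed the count filter 2 were called, where 36.1% of 4294 genes were called. Ccnd2 was lower in the cycle-high cells of all 12 mice, with a lowest, median and highest value of 83.9, 154 and 270.2 scaled CPM against 225, 368 and 579 in the cycle-low cells. The log2 fold change was -1.31 ± 0.087 (edgeR adjusted p = 2.68e-27). Cdk4 was higher in 11 of 12 mice, with 192, 249 and 348 against 128, 190.5 and 292 scaled CPM (log2 fold change 0.52 ± 0.092, edgeR adjusted p = 1.27e-06). Cdkn1a had medians of 43.9 and 57.2 and was higher in 5 and lower in 7 mice, Cdk6 medians of 1101 and 1121 and Cdkn1b medians of 131 and 128. These, Ccnd3 and Cdkn2d did not pass. The 76 genes of the lists that were tested were all higher, as the bins required. HSC and progenitor markers were not compared between the bins.

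**Figure D4:**
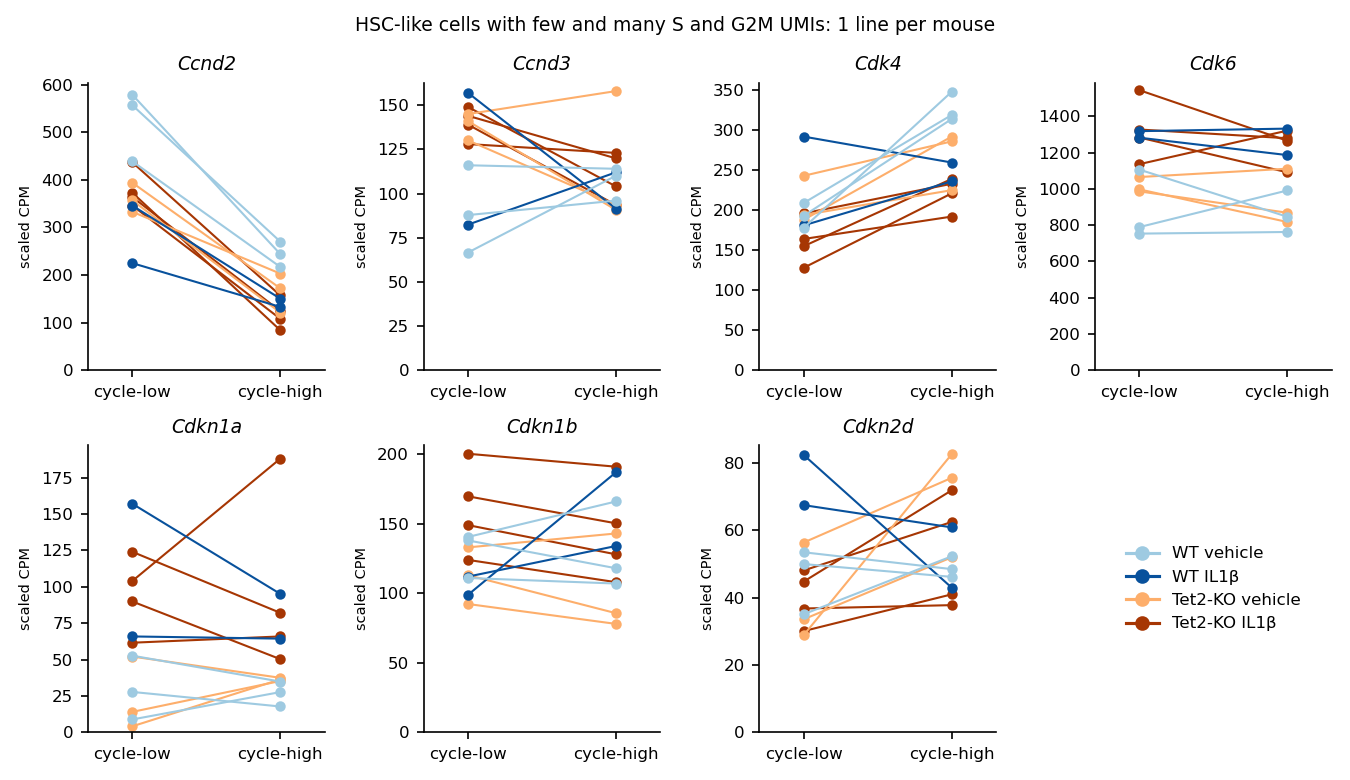
Scaled CPM (vertical axes, from 0) of 7 genes in HSC-like cells with few (cycle-low) and many (cycle-high) S and G2M UMIs, 1 line per mouse, coloured by group, 12 mice. Every Ccnd2 line goes down, from a median of 368 to 154, and 11 of 12 Cdk4 lines go up.

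Beyond HSC-like cells, 14 classes were tested, with 116 pairs of gene and class. IL1β called 22 pairs in WT mice (7 up, 15 down, 19% of pairs), where 11.7% of all gene and class pairs were called, and 23 in Tet2-KO mice (7 up, 16 down, 19.8%), where 13.5% were. Cdk6 was higher with IL1β in 15 of 15 classes in WT and 14 of 15 in Tet2-KO mice, HSC-like cells included, with median log2 fold changes of 0.25 and 0.28, though beyond HSC-like cells it was called only in EryB-like cells of WT (0.37 ± 0.11, edgeR adjusted p = 0.0291) and CLP-like cells of Tet2-KO mice (0.43 ± 0.13, 0.0399). Cdk4 was lower in 15 of 15 and 14 of 15 classes, with medians of -0.26 and -0.33. These directions are those of the fit after TMM scaling. Without scaling, the WT means of Cdk4 with vehicle and IL1β were 251 and 270.1 CPM in CLP-like cells. In Baso-like cells, the basophil-like class, they were 147 and 149.9, and in the other tested classes of WT mice the IL1β mean was lower. The classes share their mice and libraries, so these counts are not independent. Beyond HSC-like cells, the calls that held without any single mouse were those of Cdk4 and Cdkn1b in Gran/Mono Prog-like and Ccnd2 in CFU-E-like cells of both genotypes, Ccnd1 in Prog-like and pDC-like and Cdkn2c in Prog-like cells of WT mice, and Cdk4 in Prog-like, EryB-like and Neut-like and Ccnd3 and Cdkn1b in Mono-like cells of Tet2-KO mice.

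Cdk4 fell in Prog-like, Gran/Mono Prog-like, CFU-E-like and EryB-like cells of both genotypes. In Gran/Mono Prog-like cells it stood at 280, 233, 244 and 235 scaled CPM in WT vehicle and 191, 183, 168 and 171 in WT IL1β mice (log2 fold change -0.48 ± 0.10, edgeR adjusted p = 0.00159), and at 210.2, 211, 246 and 284 and then 155, 168, 187 and 182 in Tet2-KO mice (-0.46 ± 0.098, 0.00121), with no overlap in either. Without TMM scaling the means with vehicle and IL1β were closer, at 235 and 194 CPM in WT and 221 and 179 in Tet2-KO mice. In this class 3 of the 9 members tested had no overlap in each genotype, where 26.9% (WT) and 35.9% (Tet2-KO) of all genes had none. In Prog-like cells the changes were -0.33 and -0.41, in CFU-E-like cells -0.30 and -0.33 and in EryB-like cells -0.27 and -0.39 in WT and Tet2-KO mice, with edgeR adjusted p from 0.00542 to 0.0384. The WT call in Prog-like cells was lost without any 1 of 10 of the 16 mice and in 6 of 10 other settings, and with Prog-like cells taken by marker gates the value was 0.087. In Tet2-KO mice the call was also made in monocyte-like (Mono-like) cells (-0.31 ± 0.097, 0.0251) and Neut-like cells (-0.75 ± 0.14, 0.00132). Neut-like cells joined 2 clusters, and the one with deeper cells made up 17.5%, 10.9%, 10.9% and 2.55% of the class in WT vehicle, WT IL1β, Tet2-KO vehicle and Tet2-KO IL1β mice. Its part in the Cdk4 and Cdkn1b values of this class was not tested. In Mono-like cells of Tet2-KO mice the Cdk4 call was lost without any 1 of 4 mice, and the value was -0.038 with marker gates. Cdkn1b ran the other way and was higher in 14 of 15 classes of each genotype. It rose in Gran/Mono Prog-like cells, from 22.3, 18.5, 23.3 and 20.7 scaled CPM in WT vehicle to 35.7, 35, 38.3 and 44.4 in WT IL1β mice (0.80 ± 0.14, edgeR adjusted p = 0.000365). The Tet2-KO rise there was 0.48 ± 0.12 (0.00353). It rose in Mono-like cells of both, by 0.39 ± 0.13 and 0.49 ± 0.12 (0.0386 and 0.00694), and in Prog-like and Neut-like cells of Tet2-KO mice, by 0.56 each (0.0203 and 0.0391). With marker gates the Cdkn1b value was -0.09 in Prog-like cells of Tet2-KO and 0.17 in Mono-like cells of WT mice, neither called.

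Ccnd2 changed with IL1β in both directions, depending on the class. It fell in CLP-like cells, from 413, 469, 436 and 448 scaled CPM to 231, 234, 251 and 396 in WT mice (log2 fold change -0.68 ± 0.18, edgeR adjusted p = 0.0222) and by 0.63 on the log2 scale in Tet2-KO mice (0.0242). It also fell in Prog-like cells of both genotypes (-0.48 and -0.49, 0.0306 and 0.0168) and in Mono-like cells of Tet2-KO mice (-0.66, 0.0336). With marker gates these were 0.29 in Prog-like and -0.086 in Mono-like cells of Tet2-KO mice, neither called, and the Mono-like call was lost without any 1 of 5 mice. It rose in CFU-E-like cells of both, from 78.8, 104, 135 and 115 to 181, 129, 164 and 202 in WT, with 1 mouse overlapping (0.63 ± 0.14, edgeR adjusted p = 0.00192), and from 139, 121, 123 and 112 to 225, 168, 182 and 169 in Tet2-KO mice (0.53 ± 0.13, 0.00637). It also rose in EryB-like (0.66, 0.00864) and Plasma-like cells (1.29 ± 0.27, 0.0278) of WT mice and in T/NK-like cells of Tet2-KO mice (0.74 ± 0.19, 0.0195). Of the 2 genotypes, Tet2-KO mice alone had calls of cyclin D3, all lower, in CFU-E-like (-0.37), CLP-like (-0.72), Gran/Mono Prog-like (-0.32) and Mono-like cells (-0.42 ± 0.099, edgeR adjusted p = 0.00468), and no interaction was called for it. The EryB-like class joined 2 clusters, and the one with deeper cells made up 53.6%, 66.2%, 53.5% and 50% of it in the 4 groups. The other held 12267 cells before hashtag assignment, of which 440, 324, 449 and 266 were assigned to mice, so EryB-like values rest on few of its cells. The CFU-E-like cluster held 9473 cells before hashtag assignment, of which 3392 were assigned to mice, so its values too rest on a part of its cells. Ccnd2, Cdk6, Cdkn1a and Cdkn2c were called in EryB-like cells of WT mice alone. The part of the cluster mix in the EryB-like values was not tested.

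Ccnd1 fell with IL1β in 5 further classes, all in WT mice: Prog-like (19.5, 23.5, 37.2 and 34.8 to 11.1, 7.3, 11.6 and 5.93 scaled CPM, log2 fold change -1.55 ± 0.35, edgeR adjusted p = 0.00342), Mono-like (-1.29 ± 0.38, 0.0204), pDC-like (213 ± 64.2 to 111 ± 13.9, -1.03 ± 0.23, 0.00972), Baso-like, the basophil-like cells (-1.79 ± 0.42, 0.0129), and Gran/Mono Prog-like cells (-1.58 ± 0.52, 0.0265). The last 2 were at 10.8 and 5.82 scaled CPM with vehicle, and their mice overlapped. Of the 12 classes tested, HSC-like cells included, Ccnd1 was lower with IL1β in 11 in WT (median log2 fold change -0.93) and 9 in Tet2-KO mice (-0.45). No interaction was called for it. Across the 15 classes, which share their mice and libraries, the WT vehicle group had the highest mean of the 4 groups in 13. In Mono-like cells of Tet2-KO vehicle mice the values went with the pools, 7.1 and 8.47 in the mice of 1 pool and 30 and 29.3 in those of the other. Outside HSC-like cells Cdkn1a passed only in EryB-like cells of WT mice (1.23 ± 0.35, 14.6 ± 7.6 against 5.33 ± 1.79 scaled CPM, edgeR adjusted p = 0.0182). Both mice of 1 IL1β pool stood at 22 and 19.9 and the lower mouse of the other pool at 6.02, against 6.51, 2.86, 6.8 and 5.14 with vehicle, so the groups overlapped. The call was lost without WT vehicle mouse 4, without WT IL1β mouse 1, where the value was 0.81, with pools as replicates and where cells were assigned to mice by the ratio of the hashtag counts. It did not pass in Prog-like (0.054 and 0.12 in WT and Tet2-KO mice) or Gran/Mono Prog-like cells (0.14 and 0.019), and its largest fitted values outside HSC-like cells, 2.12 in MegP-like cells of WT and 2.35 in DC-like cells of Tet2-KO mice, had edgeR adjusted p = 0.0811 and 0.0688. The INK4 genes fell where they were called. Cdkn2c did so in Prog-like (19.5, 32.9, 15.8 and 18.5 to 8.61, 4.38, 9.08 and 11.9, log2 fold change -1.20 ± 0.31, edgeR adjusted p = 0.0107), Gran/Mono Prog-like (-0.61, 0.0443) and EryB-like cells (-0.66, 0.0271) of WT mice and Mono-like cells (-0.54, 0.0209) of Tet2-KO mice. The last 3 calls were lost without any 1 of 9, 5 and 4 mice, and that in Gran/Mono Prog-like cells in 8 of 10 other settings. Cdkn2d fell in Mono-like cells of both genotypes (-0.58 ± 0.17 and -0.57 ± 0.17, 0.0195 and 0.0166) and in Gran/Mono Prog-like cells of Tet2-KO mice (-0.53 ± 0.17, 0.0204).

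**Figure D5:**
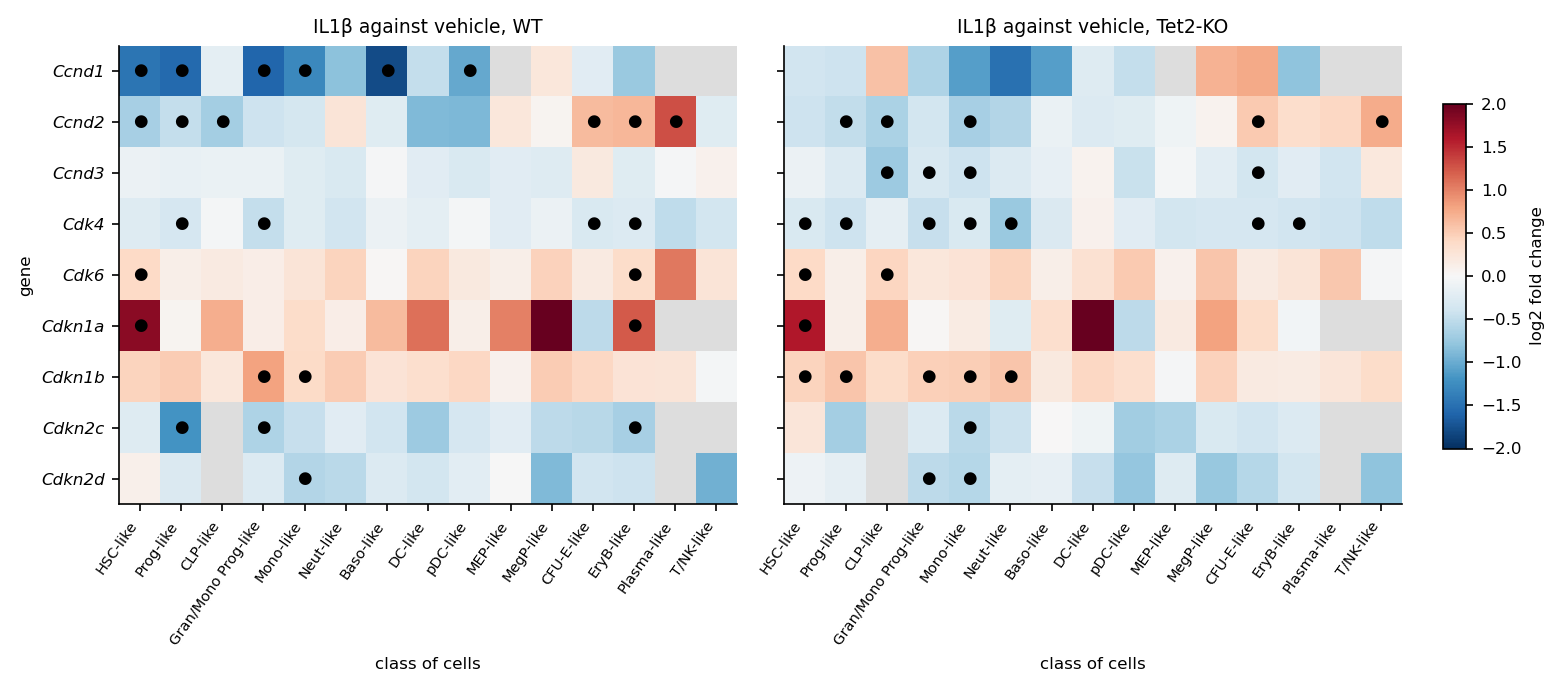
Log2 fold change with IL1β (colour, scale ending at -2 and 2) of 9 genes (rows) in 15 classes of cells (columns), in WT (left) and Tet2-KO mice (right). Black points mark edgeR calls and grey squares pairs not tested. The Cdk4 row is blue, lower with IL1β, and the Cdk6 and Cdkn1b rows red in nearly every class, while Ccnd2 is red in CFU-E-like and blue in CLP-like and Prog-like cells of both genotypes.

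Loss of Tet2 called few of these pairs. With vehicle, 12 of 116 were at an unadjusted edgeR p under 0.05, as were 4425 of all 105125 pairs. Of the 116, 1 was called, where 0.0361% of all pairs were. It was Ccnd1 in CFU-E-like cells (log2 fold change -3.04 ± 0.53, edgeR adjusted p = 0.00852), at 11.3, 0, 24.8 and 14.1 scaled CPM in WT and 0.44, 2.63, 1.47 and 2.39 in Tet2-KO mice. The groups overlapped, since WT vehicle mouse 2 had none. Among vehicle mice, the Tet2-KO level of Ccnd1 was below the WT level in 12 of the 12 classes where it was tested, HSC-like cells included, with log2 fold changes from -3.04 to -0.24. Of these 12, 2 were called, and the classes share their mice and libraries, so the count is not one of independent results. With IL1β, 16 of 116 were at an unadjusted edgeR p under 0.05, as were 8041 of all pairs. Of the 116, 1 was called, where 0.469% of all pairs were. It was Ccnd2 in T/NK-like cells, at 452, 646, 401 and 486 scaled CPM in WT and 1049, 845, 872 and 958 in Tet2-KO mice (log2 fold change 0.97 ± 0.20, edgeR adjusted p = 0.00893). These values rest on 33, 18, 60 and 101 UMIs in WT and 200, 386, 79 and 140 in Tet2-KO mice, from 158 and 393 cells. The part of the mix of T and NK cells in this class was not tested. The interaction called 0 of 116 pairs with edgeR, where 0.00285% of all pairs were called (3 of 105125). At an unadjusted edgeR p under 0.05 were 5 of the 116 and 4266 of all pairs. DESeq2 called 1, Ccnd2 in T/NK-like cells, for which edgeR gave 0.99 ± 0.29 (adjusted p = 0.254). For T/NK-like cells, 3 WT vehicle mice had the required 10 cells.

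Genes around the G1 machinery were read in HSC-like cells from lists fixed with earlier results of these data known. Their counts with IL1β stand against 10.9% of all genes called in WT and 19.6% in Tet2-KO mice. Of 52 G2M genes tested, 19 rose in WT and 28 in Tet2-KO mice and none fell, with medians of 0.58 and 0.66, and Kif23, a kinesin of cell division, rose by 1.10 ± 0.24 and 1.16 ± 0.23 (edgeR adjusted p = 0.00449 and 0.00108). Ncapd2 and Smc4, which condense chromosomes, rose by 0.82 and 0.59 in WT and 0.91 and 0.61 in Tet2-KO mice, Anp32e by 0.57 and 0.62, and the mitotic kinesins Kif11 and Cenpe by 1.36 and 1.28 in Tet2-KO mice. Of 43 S phase genes, 1 rose and 3 fell in each genotype, with medians of -0.091 and -0.068, a share of calls below that of all genes in both. Of those that fell in Tet2-KO mice, Mrpl36 had the smallest p (-0.70 ± 0.13, edgeR adjusted p = 0.000539). Of 7 genes for cyclin E, cyclin A and Cdk2, the next step after the D-type cyclins, 1 rose in WT (Ccna2, the gene of cyclin A2, 0.80, edgeR adjusted p = 0.0233) and 2 in Tet2-KO mice (Ccna2, 0.94, and Cdk2, 0.68, 0.00386 and 0.00403). Of 10 E2F and pocket protein genes, 1 rose in each genotype, E2f8 (0.78 and 0.68, 0.0145 and 0.0155), itself also on the S phase list.

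Among 8 other inhibitors and kinase partners, 3 rose in WT (Ccng2, Btg1 and Btg2) and 3 rose and 1 fell in Tet2-KO mice (Ccng2, Tob1 and Btg1, and Cdc37). Ccng2, an unconventional cyclin found in arrested cells, went from 27.6 ± 11.3 to 80.3 ± 25.8 scaled CPM in WT (log2 fold change 1.33 ± 0.23, edgeR adjusted p = 0.000429) and from 29.5 ± 1.73 to 91.2 ± 19.5 in Tet2-KO mice (1.58 ± 0.20, 8.39e-06). Cdc37, a chaperone partner of Cdk4, fell in Tet2-KO mice from 195 ± 36.7 to 136 ± 15.9 (-0.54 ± 0.14, 0.00642). Of 8 p53 targets other than Cdkn1a, none rose and Bax fell in WT mice (-0.62, edgeR adjusted p = 0.0393), while in Tet2-KO mice Trp53inp1 (0.86, 0.00295) and Mdm2 (0.63, 0.0127) rose and Bax (-0.96, 0.000318) and Aen (-0.74, 0.0144) fell. Of 10 upstream regulators, Gata2 rose by 0.62 in both genotypes (0.00289 and 0.000776) and Mycn fell (-1.46 and -1.32, 0.00729 and 0.00128), and Tgfb1 (0.40) and Gfi1 (0.74) rose in Tet2-KO mice. Between the genotypes, none of the genes on these lists was called, where the share of all genes called was as given above.

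Across the 15 classes of WT vehicle mice, genes whose mean levels followed each member closely were found by Pearson's r of log2(CPM + 1) over 8716 genes, as a description. Ccnd1 went with Epb41l4b (r = 0.934), Cd180 and Plekhb2, Ccnd2 with Zcchc11 (0.930), Bbx and H2-Q7, and Ccnd3 with E2f2 (0.890), S100a6 and Lgals3. Cdk4 went with the translation genes Rpl4 (0.935), Rpl26 and Eef1b2, and Cdk6 with Patz1 and Map7 (0.937). Cdkn1a went with Emb (0.888) and Notch1, Cdkn1b with Ptms (0.926), Clk1 and Smad4, and Cdkn2d with Myl6 (0.968), Myh9 and Wdr1. Cdkn2c went with the cell cycle genes Hist1h2af (0.924), Fbxo5 and Top2a. For Cdkn1c, with its few UMIs, the closest was Zfp729a (0.818), followed by Pglyrp2 and Cep97. No gene of the 10 was among another's 3 closest genes. The points share libraries and mice, and their depths differ by class.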

How the data were processed

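The authors deposited UMI counts per gene and barcode for 8 libraries, without normalization, made with Cell Ranger 3.1.0 on mm10 per the labels, which also list Seurat 3.2.3. Barcodes with at least 750 genes and at most 10% mitochondrial UMIs were kept. Hashtags were called with HTODemux (Seurat 5.3.0), which removed 3938 doublets and left 33083 cells without a call. WT vehicle cells were clustered (Leiden, resolution 1, 30 components, 2000 variable genes without the members, the gene lists and cell cycle genes), and other cells took the cluster of most of their 20 nearest WT vehicle cells. Clusters took the name with most markers among their 10 leading genes, with ties going to the name of the foremost marker, a rule chosen after seeing the clusters. The tie decided 1 class, CLP-like, whose cluster had 2 CLP and 2 Prog markers among its 10 leading genes and could as well have been named Prog-like. UMIs were summed per mouse and class, for mice with at least 10 cells, and tested with edgeR 4.0.16 (R 4.3.3; filterByExpr, TMM, quasi-likelihood test, 4 groups in 1 fit, Benjamini-Hochberg over all genes of the class, threshold 0.05), which was tested on simulated data first. The standard error is the log2 fold change over the root of F. DESeq2 1.42.0 was an alternative. Permutation tests were exact and two-sided (scipy 1.17.1). Mice numbered alike in different groups did not deviate together (r from -0.08 to 0.07 over 24 pairs), so no block was used. The 10 genes and the lists were chosen with earlier results of these data known. Named were all members in HSC-like cells and by class, members called elsewhere, at most 6 called list genes per comparison by smallest p, and the 3 most similar genes per member. Of the similar genes, 2 are not reported here. List genes beyond this rule (among them Btg1, Btg2, Tob1, Cdc37, Ccna2, Cdk2, E2f8, Mdm2, Aen, Trp53inp1, Tgfb1 and Gfi1) were named after their values were seen. Promoter sequences are RefSeq's (GRCm38.p6).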

Additional observations from a re-analysis of the deposited data

Results flagged for a closer look

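Among 52 groups of 4 mice tested for a mouse far from the others (Dixon's test), 2 were flagged, where chance flags about 1 in 20 groups. For Cdk6 in HSC-like cells, Tet2-KO vehicle mouse 1 stood at 965 scaled CPM, above the other 3 mice of its group at 853 to 863, and below every Tet2-KO IL1β mouse. For the share of Ccnd2 among D-type cyclin UMIs in HSC-like cells, WT vehicle mouse 2 stood at 56.2%, below the other 3 WT vehicle mice at 69.6% to 72%. This mouse had the fewest HSC-like UMIs, 83472, and 48 D-type cyclin UMIs.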

How the results depend on the processing

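Over the 56 called pairs of gene and class, 1439 of 1442 alternative values kept their direction, while 18 pairs kept their call without each single mouse and 3 in every setting. The 3 reversed values came from Prog-like cells defined by marker gates instead of clusters, Ccnd2 (0.29) and Cdkn1b (-0.09) with IL1β in Tet2-KO and Cdk4 (0.087) with IL1β in WT mice, and the cause was not tested.

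In HSC-like cells, the 4 members called with IL1β in WT mice became 2 with pools as replicates (Ccnd1 and Cdkn1a) and 1 each with marker gates (Cdk6) and in the cells at or below the median of S and G2M UMIs (Cdkn1a), and counts were 2 to 4 without 1 mouse. With the S and G2M percent as covariate none of these 4 was called and 1 other member was, Cdkn1b (0.73, edgeR adjusted p = 0.0437). This percent did not overlap between the WT treatments, so that fit cannot cleanly separate it from IL1β. The 4 called in Tet2-KO mice became 2 with pools (Cdkn1a and Cdkn1b), 0 with gates and 1 in the cells low in S and G2M UMIs (Cdkn1a), and 2 to 4 without 1 mouse. The 1 call for Tet2-KO against WT with vehicle became 0 in each of these 4 settings (0 to 1 without 1 mouse). Pools leave 2 samples per group and gates fewer cells and mice. Under gates, Ccnd1 and Cdkn1a did not enter the fit in HSC-like cells. In WT vehicle, WT IL1β, Tet2-KO vehicle and Tet2-KO IL1β mice, gated Cdkn1a stood at 6.13, 115, 34.8 and 59.8 CPM, from 2, 21, 13 and 18 UMIs. Its 95% intervals overlapped between the treatments in Tet2-KO mice (18.5 to 59.5 and 35.4 to 94.5) and not in WT mice. Gated Ccnd1 stood at 64.4, 21.9, 13.4 and 6.64 CPM, from 21, 4, 5 and 2 UMIs. Cdkn1b with IL1β in WT mice was also called without a low-count filter (edgeR adjusted p = 0.0479). In the cycle bins 4 members were called without the low-count filter in place of 2, and 2 to 2 without 1 mouse.

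In the other classes, the 22 calls with IL1β in WT became 7 with pools, 9 with gates and 13 with the covariate (11 to 24 without 1 mouse), and the 23 in Tet2-KO mice 6 with pools and 13 with gates (12 to 27). The 1 genotype call with vehicle became 0 with DESeq2, 4 without the filter and 3 with the ratio rule for hashtags (0 to 1 without 1 mouse), and the 1 with IL1β became 3 without the filter, 2 with the ratio rule and 0 with pools, gates or the covariate (0 to 3). DESeq2 called 1 interaction where edgeR called 0. Permutation tests without a mouse or over pools cannot reach 0.05.

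Mice that share a number are not paired by design, and none of 24 pairs correlated above 0.1. With the mouse number as a replicate block, 4 members were called in HSC-like cells with IL1β in WT and 5 in Tet2-KO mice, and 2 genotype calls with vehicle were made in other classes; with the pool number as the block, 2 genotype calls were made there with IL1β. The fewest UMIs in HSC-like cells of a mouse, 83472, limit what its low genes can show.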
